A study of Caenorhabditis elegans with 21 samples.

Results

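The gonad innexins of Caenorhabditis elegans are described here as 5 genes, inx-8, inx-9, inx-14, inx-21 and inx-22, chosen by name for their known place in the gonad. All 5 were present among the 17720 genes listed for adults and among the 23184 genes listed for L1 larvae, where 25 innexin genes were found in all. RNA sequencing of whole N2 hermaphrodites gave 21 libraries in 7 groups of 3. Day 1 adults, about 100 animals per library and all currently fed, were controls that had always been fed, fertile F4L1starved animals that carried eggs, or sterile F4L1starved animals picked because they carried no eggs. Controls were picked for carrying eggs as well. The F4L1starved adults had themselves been starved as L1 larvae, after the same treatment of their ancestors. L1 larvae, about 10000 animals per library, descended either from fed controls or from starved ancestors through later fed generations (F4L1starved + 3fed, written F4+3 below), and each ancestry was collected with food and without food. Food and no-food larvae were also collected at different times, so current feeding and time of collection cannot be told apart, and the sterile adults were defined by the absence of eggs, which is itself a state of the gonad.

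Innexins form the gap junctions of invertebrates: channels in the membranes of touching cells that dock to each other and let small molecules and ions pass. In the C. elegans gonad, INX-8 and INX-9 are made by the somatic gonad, including the sheath cells around the germ line, whereas INX-14, INX-21 and INX-22 are made by germ cells. The somatic and germline subunits meet in shared junctions that are needed for germ cell proliferation, and INX-14 and INX-22 with their somatic partners hold oocytes back from meiotic maturation until sperm signal. On the WBcel235 annotation, inx-8 and inx-9 are neighbors on the same strand of chromosome IV and are similar in sequence, so reads could have been divided between them by the counting. The gene pair inx-22 and inx-21 lies side by side on 1 strand of chromosome I, and inx-14 lies elsewhere on that chromosome, on the minus strand.

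Depth, taken as the reads assigned to genes and recovered from the normalized values, was 12187063 to 22942483 per adult library. It was 25209530 to 53482585 per L1 library. Values are counts normalized by DESeq2, and adult and L1 levels were normalized separately and are not compared. The libraries of a group were described as independent biological replicates. In adults 13413 genes with a mean of at least 10 normalized counts were tested with limma on log2(count + 1), and a gene was called at a Benjamini-Hochberg adjusted p under 0.05. In larvae 15902 genes were tested and the limit was 0.1.

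The sterile adults differed from both other adult groups: the 3 germline innexins were lower and the 2 somatic gonad innexins were higher. inx-14 had 2055, 1797 and 1823 normalized counts in the 3 control libraries, 1149, 1482 and 1392 in the fertile libraries, and 222, 502 and 423 in the sterile libraries. inx-22, the subunit that acts with inx-14 in oocytes, had 1880, 1561 and 1687 in controls, 1038, 1308 and 1315 in fertile animals, and 232, 424 and 473 in sterile animals. For both genes the 3 adult groups did not overlap at any point, with controls highest and sterile animals lowest. Of all genes tested, 42.7% had every sterile library below every control library, and 39.6% below every fertile library. inx-21, which is needed for germ cell proliferation, had 357, 321 and 377 counts in controls, 261, 347 and 308 in fertile animals, and 98.3, 189 and 163 in sterile animals. Control and fertile libraries overlapped for inx-21, and the sterile libraries lay below both. Sterile replicate 1 was the lowest library for each germline member.

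**Figure D1:**
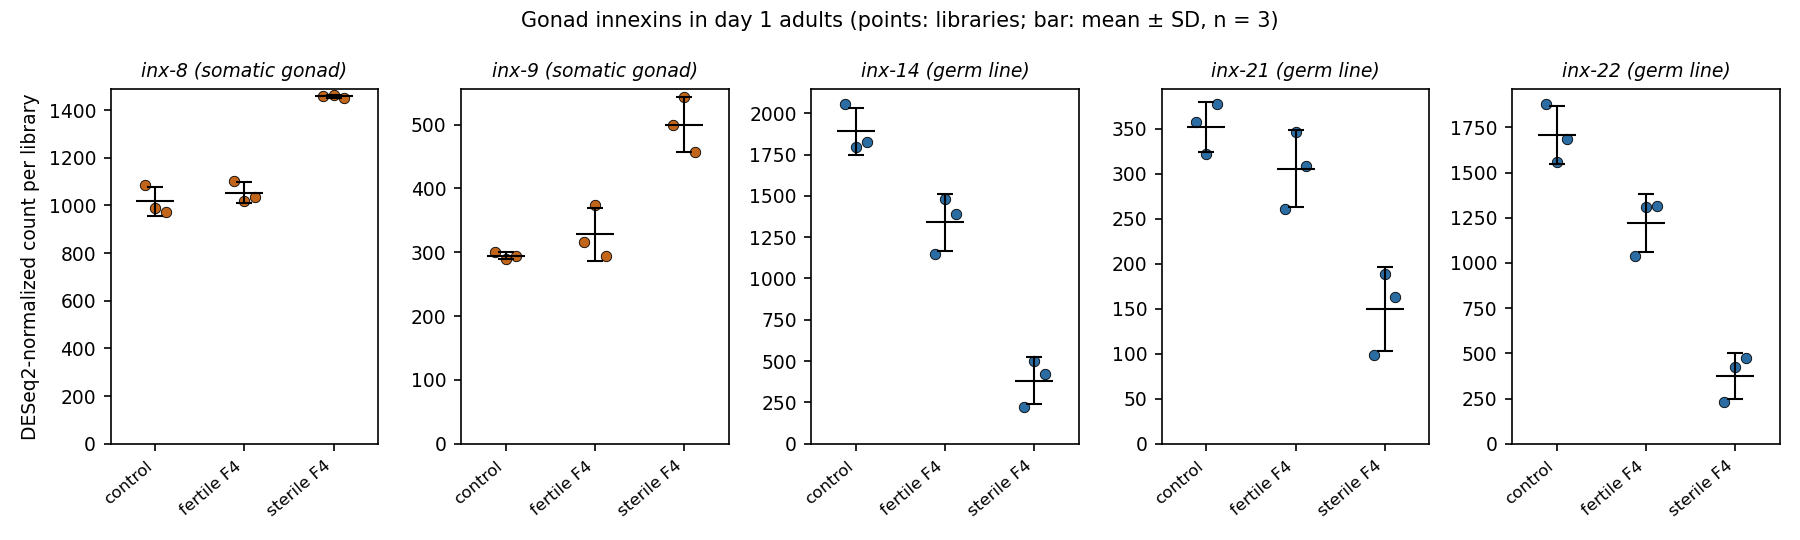
DESeq2-normalized counts (vertical axes, linear from 0) of the 5 gonad innexins in day 1 adults, by group. Points are libraries, bars are the mean ± SD of 3; the sterile libraries are above all others for inx-8 and inx-9 and below all others for inx-14, inx-21 and inx-22.

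The somatic gonad members went the other way in sterile animals. inx-8 had 1087, 991 and 974 normalized counts in controls, 1105, 1020 and 1036 in fertile animals, and 1459, 1463 and 1453 in sterile animals. The 3 sterile values were nearly equal, and all lay above every control and fertile library. inx-9, which can take the place of inx-8 in sheath cells, had 301, 289 and 294 in controls, 316, 374 and 293 in fertile animals, and 499, 543 and 457 in sterile animals. Fertile and control libraries overlapped for both genes, while sterile libraries overlapped with neither group. Of all genes tested, 43.3% had every sterile library above every control library, and 38.9% above every fertile library.

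Sterile against control adults gave 5 of 5 gonad innexins called, 2 higher and 3 lower, but 83% of all genes tested were also called in this comparison (41.3% higher and 41.8% lower). inx-14 fell by 2.38 on the log2 scale (SE 0.24, limma adjusted p = 2.49e-06) and inx-22 fell by 2.24 (SE 0.22, adjusted p = 2.28e-06). inx-21 fell by 1.27 (SE 0.22, adjusted p = 0.000201). inx-8 rose by 0.52 (SE 0.10, adjusted p = 0.000409) and inx-9 by 0.76 (SE 0.14, adjusted p = 0.000257). The median of all genes tested was 0.14 on the same scale, 0.33 after TMM scaling and -0.10 after scaling to library totals, and all 5 directions held under each scaling. In whole animals, fewer cells of a type and less RNA per cell cannot be told apart.

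Against fertile animals that shared the same L1 starvation, sterile animals again gave 5 of 5 called where 78.4% of all genes tested were called (38.8% higher and 39.6% lower). inx-14 fell by 1.88 (SE 0.24, adjusted p = 2.93e-05), inx-22 by 1.75 (SE 0.22, adjusted p = 2.90e-05) and inx-21 by 1.06 (SE 0.22, adjusted p = 0.000955). inx-8 rose by 0.47 (SE 0.10, adjusted p = 0.00105) and inx-9 by 0.61 (SE 0.14, adjusted p = 0.00150). After scaling to library totals, the rises of inx-8 (0.16, adjusted p = 0.157) and inx-9 (0.30, adjusted p = 0.0632) no longer passed, and the germline members still did. With that scaling 39.4% of all called genes were higher, against 49.5% in the values as deposited. The comparisons with controls and with fertile animals share the sterile libraries.

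Fertile against control adults compares egg-carrying animals with and without L1 starvation. The animals' own starvation, that of their ancestors and the picking of fertile animals cannot be told apart here. None of the 5 gonad innexins was called, where the background was 21.9% (9.86% higher and 12% lower). Of the 2936 called genes 45.1% were higher, and of those called after TMM scaling 70.4% were higher. The 3 fertile libraries were nonetheless below the 3 control libraries for inx-14 (log2 fold change -0.50, SE 0.24, adjusted p = 0.145) and for inx-22 (-0.49, SE 0.22, adjusted p = 0.128). In this comparison 32.6% of all genes tested had every fertile library below every control library, and 18.5% had every fertile library above. The median log2 fold change of all genes tested was -0.11, and 0.04 after TMM scaling. Leaving out sterile replicate 1, which belongs to neither group but enters the shared estimate of spread, gave the same log2 values with adjusted p = 0.00597 for inx-14 and 0.00690 for inx-22, and fitting fertile and control animals alone gave 0.00398 and 0.00548. The background rose as well: 36.8% of all genes tested were called without sterile replicate 1 (24.0% lower). With fertile and control animals alone it was 41.3% (28.1% lower). inx-21 was at -0.21 (SE 0.22, adjusted p = 0.499), inx-8 at 0.05 (SE 0.10, adjusted p = 0.722) and inx-9 at 0.15 (SE 0.14, adjusted p = 0.440).

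**Figure D2:**
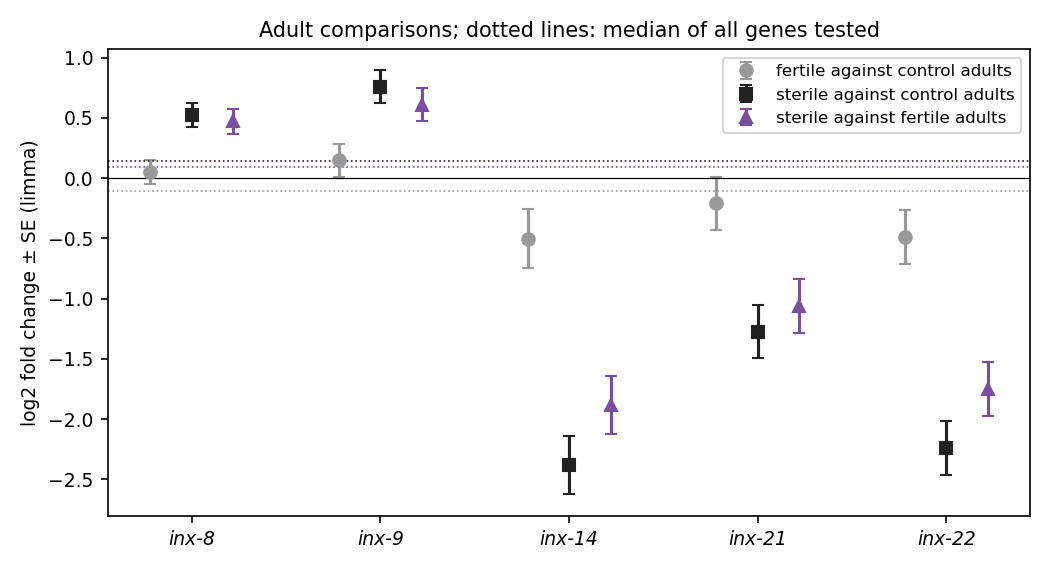
Log2 fold changes (vertical axis, limma, ± SE) of the gonad innexins in the 3 adult comparisons. inx-14, inx-21 and inx-22 lie below 0 and inx-8 and inx-9 above 0 in both comparisons with sterile animals, and the dotted lines mark the median of all genes tested in each comparison.

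Ratios of members within a library do not depend on how libraries were scaled. The ratio of inx-22 to inx-14 was 0.868 to 0.925 in controls, 0.883 to 0.945 in fertile animals and 0.845 to 1.12 in sterile animals, so that the groups overlapped. The ratio of inx-21 to inx-14 was 0.174 to 0.207 in controls, 0.221 to 0.234 in fertile animals and 0.377 to 0.443 in sterile animals, without overlap. In each sterile library inx-21 thus stood higher relative to inx-14 than in any library of the other groups. The ratio of inx-9 to inx-8 was 0.276 to 0.302 in controls, 0.283 to 0.366 in fertile animals and 0.314 to 0.371 in sterile animals. The ratio of inx-14 to inx-8, germline over soma, was 1.81 to 1.89 in controls, 1.04 to 1.45 in fertile animals and 0.152 to 0.343 in sterile animals. With 3 libraries against 3 an exact 2-sided permutation test cannot give a p below 0.1, so the test could not pass whatever the size of a difference, and the ratios are given as a description.

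**Figure D3:**
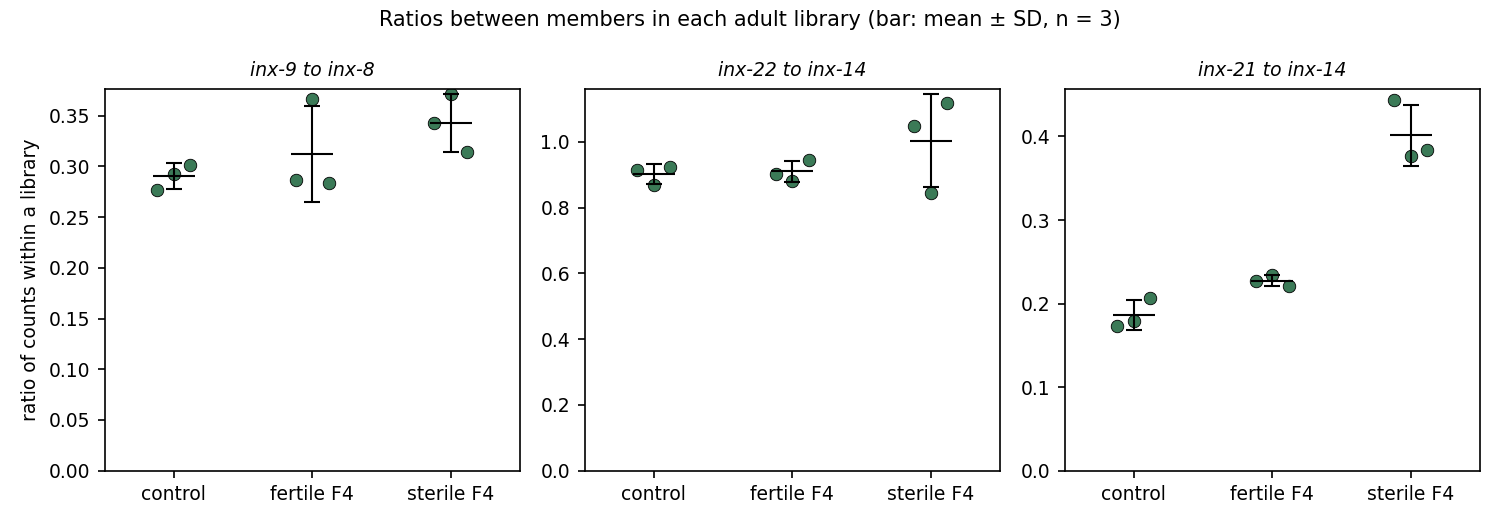
Ratio of 2 members' counts in each adult library (vertical axes, linear from 0), with the mean ± SD of 3 libraries. inx-22 to inx-14 overlaps between groups, and inx-21 to inx-14 goes from 0.174 to 0.207 in controls up to 0.377 to 0.443 in sterile animals.

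Divided by exon length, which allows levels of different genes to be compared, inx-14 and inx-22 were highest in controls, at 1200 and 1076 normalized counts per kilobase. inx-8 followed at 750.4, then inx-9 at 227 and inx-21 at 212, and within each of the pairs inx-14 with inx-22 and inx-9 with inx-21 the libraries' ranges overlapped. In fertile animals inx-14, inx-8 and inx-22 overlapped at 850.4, 777 and 768 per kilobase. In sterile animals inx-8 was highest at 1075 per kilobase, followed by inx-9 at 384, by inx-14 and inx-22 at 242 and 237, which overlapped, and by inx-21 at 90.5. The 3 germline members made up 71.8% ± 0.814 (SD, n = 3) of the per-kilobase sum over the 5 genes in controls, 63.5% ± 3.65 in fertile animals and 27.6% ± 7.31 in sterile animals. The ranges of this share did not overlap between adult groups.

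Markers of other cells and tissues moved with the same groups, and their part in the innexin differences was not tested. The summed count of 22 germ cell and oocyte genes was 283876 to 331057 in controls, 184509 to 229812 in fertile animals and 31881 to 67360 in sterile animals, with sterile replicate 1 again lowest. All 22 were called lower in sterile animals than in controls (median log2 fold change -2.66, where 41.8% of all genes were lower and the median of all genes was 0.14), among them nos-2, egg-2 and spn-4. In fertile animals 2 of the 22 were called lower than in controls, where 12% of all genes were lower. All 22 had log2 fold changes below 0 there (median -0.48, against -0.11 for all genes). The summed count of 15 sperm genes was 205 to 358 in controls, 429 to 1055 in fertile animals and 9656 to 11106 in sterile animals, 2 of them at 0 in every control library. All 14 sperm genes tested were called higher in sterile animals (median 5.80), where 41.3% of all genes were higher. Of the 10 genes tested that mark embryos in the uterus, 8 were called lower in sterile animals than in controls (median -3.54), and 3 of the 14 listed were at 0 in every sterile library. All 5 body wall muscle genes were called higher (median 1.43), as were 3 of 5 intestinal genes and 5 of 6 neuronal genes. The remaining neuronal gene, snb-1, was called lower (log2 fold change -0.58).

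The somatic gonad list, set beside inx-8 and inx-9, was called in both directions in sterile animals. Its 12 genes in the files summed to 21022 to 22697 in controls and 20052 to 22914 in sterile animals, and 5 of 12 were called higher and 4 lower (median 0.25), where 41.3% of all genes were higher and 41.8% lower. ceh-18, a homeobox gene of sheath cells, had 104 ± 10.7 counts in controls and 280 ± 26.4 in sterile animals (log2 fold change 1.42). sys-1, a beta-catenin that acts in the gonad precursors, had 1195 ± 89.4 in controls and 244 ± 74.3 in sterile animals (log2 fold change -2.34). In whole animals the counts of both genes need not come from the somatic gonad. ceh-18 also had 3690 ± 469 counts in control L1 larvae with food, whose gonad primordium holds only precursor cells. The median log2 fold change was 1.43 for the body wall muscle genes and -2.66 for the germ cell and oocyte genes. The log2 fold changes of inx-8 and inx-9 lay below the lowest among the 5 body wall muscle genes, 1.08. They lay within the range of the intestinal genes (-0.16 to 1.88) and within that of the neuronal genes (-0.58 to 1.49). These differences were not tested.

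Genes of oocyte maturation and ovulation were set beside the gonad innexins. Of 25 genes tested in sterile against control adults, 9 were higher and 15 lower (median -1.60), where 83% of all genes were called, 41.3% higher and 41.8% lower, with a median of 0.14. itr-1, the inositol trisphosphate receptor that sheath cells use to contract, rose from 2492 ± 89.9 to 7230 ± 585 counts, and kin-1, a catalytic subunit of protein kinase A, from 619 ± 24.3 to 1552 ± 44.7. ptp-2, a phosphatase of the SHP family, fell from 2593 ± 295 to 677 ± 144, and lin-3, the epidermal growth factor ligand, from 857 ± 57.4 to 232 ± 30.8. In fertile animals 3 of the 25 were called lower than in controls, lin-3 (557 ± 79.5), mpk-1 and ptp-2, where 12% of all genes were lower. Only gsa-1, the stimulatory G protein of sheath cells, was called higher, where 9.86% of all genes were higher. Of 15 genes for the germline stem cell niche and meiotic entry, 14 were lower and 1 higher in sterile animals (median -1.81), and 8 were lower in fertile animals, where 12% of all genes were lower. These included lst-1, a Notch target in germline stem cells, at 2024 ± 277 in controls, 1298 ± 71.2 in fertile animals and 467 ± 112 in sterile animals.

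Of the 18 other innexins tested in sterile against control adults, 12 were called higher and 4 lower (median 1.05), and of all genes 41.3% were higher and 41.8% lower (median 0.14). inx-15 had 111 ± 18.6 counts in controls and 450 ± 17.3 in sterile animals (log2 fold change 2.03), and inx-16, which couples intestinal cells for the defecation rhythm, had 134 ± 7.08 and 429 ± 51.6 (1.66). inx-2 and inx-3 fell further than any gonad innexin did in this comparison. inx-3, which is used in embryos and the pharynx, went from 1744 ± 135 to 209 ± 101 (log2 fold change -3.16), and inx-2 from 849.8 ± 57.7 to 125 ± 49.8 (-2.83). Unlike inx-14 and inx-22, neither was below controls in fertile animals, which had 1874 ± 111 counts of inx-3 and 1085 ± 5.87 of inx-2. In fertile animals 5 of the 18 were called higher (inx-1, inx-5, inx-12, inx-15 and inx-16) and none lower, where 9.86% of all genes were higher and 12% lower, a balance that TMM scaling moved as given above.

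**Figure D4:**
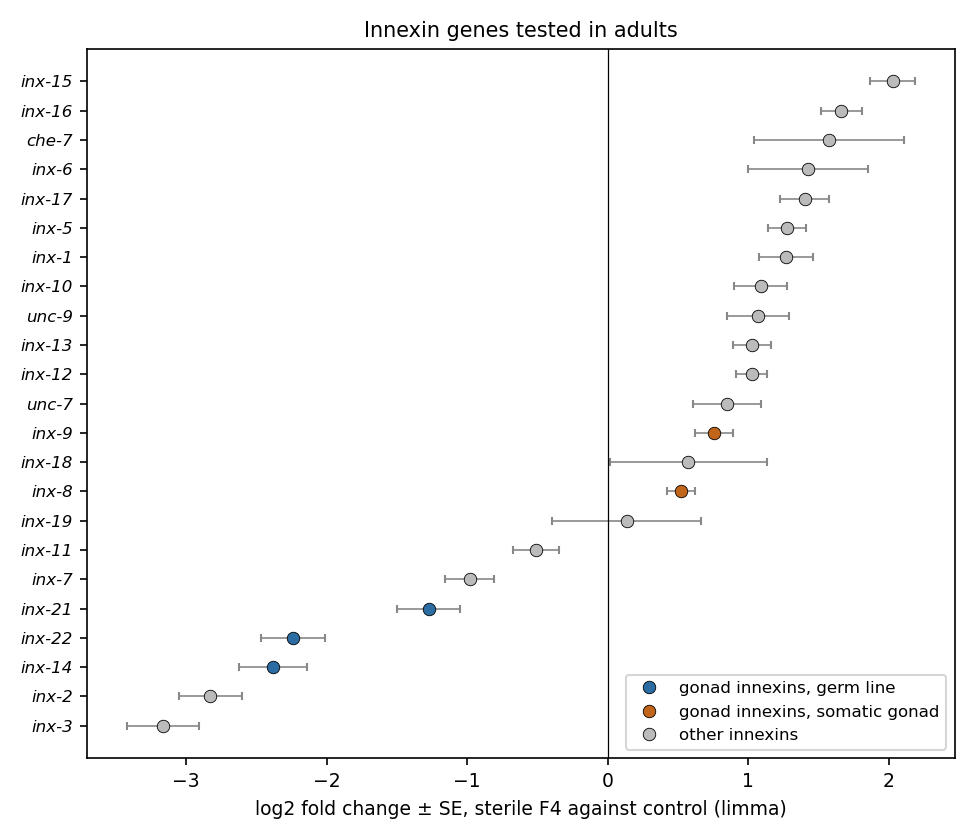
Log2 fold change ± SE (horizontal axis, limma) of the 23 innexin genes tested, sterile against control adults. The germline members inx-14, inx-21 and inx-22 lie between -2.38 and -1.27, with only inx-2 and inx-3 below them, and inx-8 and inx-9 lie at 0.52 and 0.76 among the genes above 0.

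The adult genes nearest in profile to each member were found as those with the smallest root mean square difference of centered log2 values over the 9 libraries, among genes with a mean of at least 50. For inx-14 these were san-1 (0.06), oma-1 (0.07) and egg-6 (0.07), where oma-1 encodes an oocyte maturation factor. For inx-22 they were skpt-1, rba-1 and gon-4 (0.06 to 0.07), and for inx-21 arp-6, set-29 and pro-1 (0.06 to 0.09). inx-8 was nearest to vha-16, F48E3.4 and ftt-2 (0.06 to 0.07), and inx-9 to R02D3.1, C15H9.4 and dpyd-1 (0.08 to 0.09). Between members, inx-14 and inx-22 differed by 0.12, with 56 of 9955 genes nearer to inx-14 than inx-22 was, and inx-8 and inx-9 by 0.15. inx-21 was farther from inx-14, at 0.48, with 2234 genes nearer to inx-14.

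In L1 larvae, whose gonad primordium holds only precursor cells, all 5 genes were low, with 0 to 115 reads per gene and library. inx-14 had 63.2, 44.9 and 35.0 normalized counts in control larvae with food, 85.3, 75.2 and 74.3 in control larvae without food, 68.9, 41.2 and 39.9 in F4+3 larvae with food, and 55.5, 93.6 and 72.3 in F4+3 larvae without food. inx-21 had 28.5, 31.2 and 29.2, then 48.9, 39.1 and 56.4, then 26.3, 42.9 and 30.8, then 81.8, 56.2 and 40.2 in the same order of groups. In control larvae the libraries without food were all above those with food for both genes, and in F4+3 larvae the groups overlapped. Such a separation in control larvae was seen for 27.8% of all genes tested. inx-22 had 34.7, 36.1 and 34.0, then 27.8, 28.1 and 30.1, then 27.4, 32.2 and 29.9, then 6.17, 30.1 and 38.5. Unlike inx-14 and inx-21, inx-22 had all control libraries without food below those with food, as for 30.5% of all genes tested. Its F4+3 groups overlapped. The value of 6.17 came from 4 reads in F4+3 no-food replicate 1, the shallowest L1 library.

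inx-8 had 27.2, 28.3 and 23.3 counts in control larvae with food, 8.63, 19.1 and 24.4 in control larvae without food, 33.9, 50.1 and 31.6 in F4+3 larvae with food, and 16.97, 19.5 and 16.1 in F4+3 larvae without food. F4+3 larvae with food were above those without food in every library, as for 31.04% of all genes tested, and the control groups overlapped. inx-9 was the lowest member, with 5.83 to 16.1 counts in control larvae with food, 0 to 12.04 in control larvae without food, 4.38 to 6.65 in F4+3 larvae with food and 1.54 to 12.2 in F4+3 larvae without food. All 4 groups overlapped, and its mean lay under the minimum of 10, so it was not tested. One library, control no-food replicate 1, had 0 reads of inx-9, which allows up to 3 reads or 2.88 normalized counts by counting error alone.

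**Figure D5:**
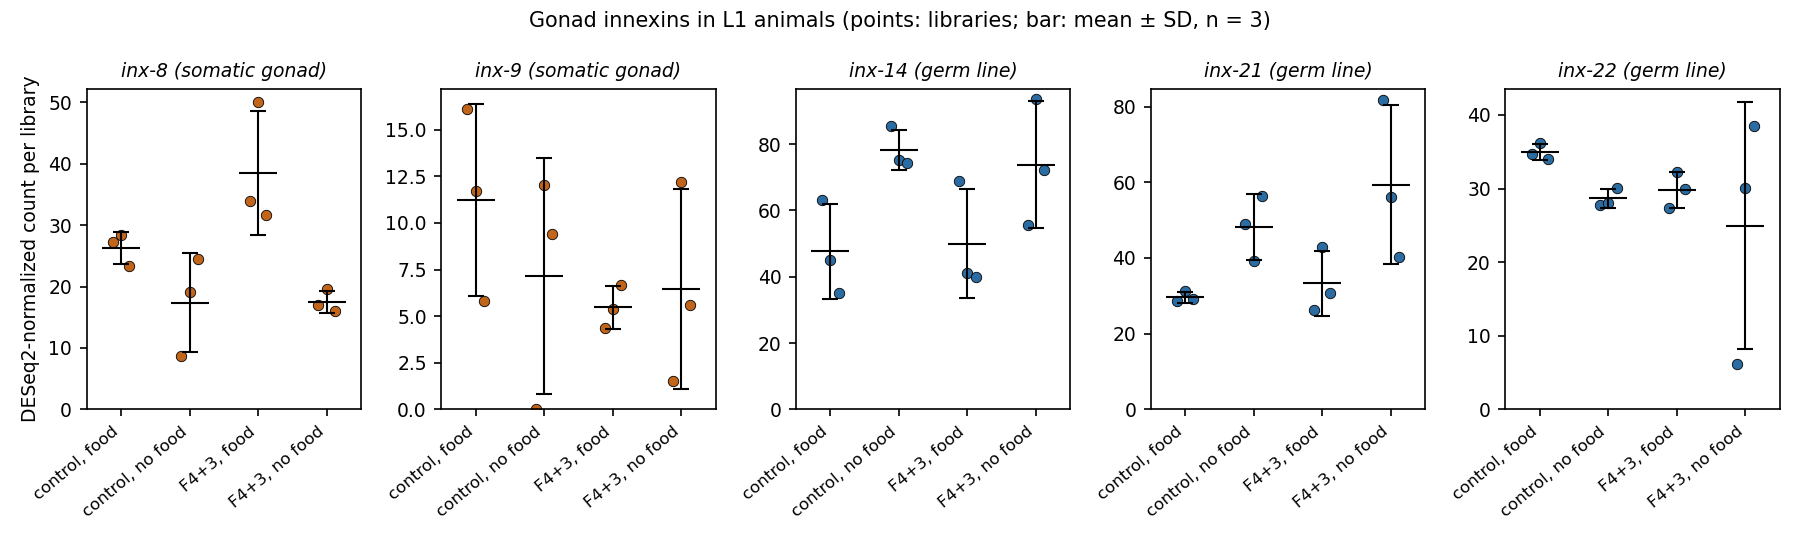
DESeq2-normalized counts (vertical axes, linear from 0) of the gonad innexins in the 4 L1 groups. Points are libraries and bars the mean ± SD of 3. On average inx-14 and inx-21 lie higher without food and inx-8 and inx-22 lower, with overlap in some groups.

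Ancestral starvation left no gonad innexin past the threshold. Between F4+3 and control larvae with food, 0 of the 4 tested members were called by limma, where the background was 0.0126%, 2 genes. edgeR and DESeq2 also called 0 of the 4, where edgeR called 2 and DESeq2 216 of all genes. inx-8 was at 0.51 on the log2 scale (SE 0.37, unadjusted p = 0.192 in the limma fit), with all 3 F4+3 libraries above the controls, as was the case for 6.81% of all genes. inx-22 was at -0.22 (SE 0.48), with all 3 below, as for 6.03% of all genes. Without food 0 of 4 members were called (background 0%, with 811 genes at an unadjusted p under 0.05, 0 genes by edgeR and 48 by DESeq2). The difference between the ancestral effect with and without food also gave 0 of 4 (background 0%, with 636 genes at an unadjusted p under 0.05, 0 genes by edgeR and 17 by DESeq2). The SE of a member's difference between ancestries was 0.29 to 0.48 with 3 libraries per group, and that of the difference with and without food was 0.40 to 0.67.

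Absence of food went with higher inx-14 and inx-21 in control larvae, and 58.1% of all genes were called in that comparison (27.6% higher and 30.5% lower). inx-14 rose by 0.74 (SE 0.29, adjusted p = 0.0420) and inx-21 by 0.67 (SE 0.30, adjusted p = 0.0748), while inx-8 was at -0.68 (SE 0.37, adjusted p = 0.143) and inx-22 at -0.28 (SE 0.48, adjusted p = 0.649). The call of inx-14 was lost without control food replicate 3 (adjusted p = 0.160) or control no-food replicate 1 (0.113). The call of inx-21 was lost on leaving out any 1 of the 6 control libraries other than no-food replicate 2 (adjusted p = 0.102 to 0.213). Without control no-food replicate 3, inx-8 was called lower (-0.97, adjusted p = 0.0627).

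In F4+3 larvae, where the background was 57.5% (27.1% higher and 30.4% lower), 2 of 4 tested members were called. inx-21 rose by 0.79 (SE 0.30, adjusted p = 0.0391) and inx-8 fell by 1.07 (SE 0.37, adjusted p = 0.0264). inx-14 was at 0.57 (SE 0.29, adjusted p = 0.113) and inx-22 at -0.57 (SE 0.48, adjusted p = 0.338). The call of inx-21 was lost without F4+3 food replicate 1 (0.134) or F4+3 no-food replicate 1 (0.173), and that of inx-8 without F4+3 food replicate 2 (0.117). inx-14 passed without control food replicate 1 (0.0868), control food replicate 3 (0.0990), F4+3 food replicate 1 (0.0361) or F4+3 no-food replicate 1 (0.0555), and in edgeR (0.0827), in edgeR with the replicate block (0.0675), in DESeq2 (0.0809) and with TMM (0.0927) or total scaling (0.0247). inx-22 was called lower without F4+3 no-food replicate 3 (-1.04, adjusted p = 0.0872) and turned to 0.19 without F4+3 no-food replicate 1. With total scaling the median of all genes without food against food moved from 0.04 to 0.34 in control larvae and from 0.02 to 0.28 in F4+3 larvae, and the share of called genes that were higher from 47.5% to 68.7% and from 47.2% to 65.4%.

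Per kilobase, inx-14 was the highest member in each L1 group, at 30.2 in control larvae with food, 49.6 in control larvae without food, 31.7 in F4+3 larvae with food and 46.8 in F4+3 larvae without food. Its libraries overlapped with those of the next gene in 3 of the 4 groups, the exception being control larvae without food, where inx-21 followed at 29.1. The germline members made up 71.6% ± 1.97 (SD, n = 3) of the per-kilobase sum in control larvae with food, 84.4% ± 8.39 without food, 68.5% ± 4.63 in F4+3 larvae with food and 84.8% ± 2.10 without food. Within each ancestry the ranges with and without food did not overlap, but the share rests on low counts and includes inx-9, which was too low to test. The highest value, 94.1%, came from control no-food replicate 1, with 9 reads of inx-8 and 0 of inx-9. The germline member inx-22 itself was lower on average without food in both ancestries. The summed germ cell and oocyte genes were at 6129 to 6614 with food and 5683 to 6180 without food in control larvae, and at 6298 to 6791 and 5297 to 6951 in F4+3 larvae.

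Of 20 other innexins tested in larvae, 9 were called higher and 4 lower without food in each ancestry, where 27.6% of all genes were higher and 30.5% lower in control larvae, and 27.1% and 30.4% in F4+3 larvae. inx-13 fell from 11629 to 5833 in control larvae and from 13322 to 6234 in F4+3 larvae (log2 fold changes -0.99 and -1.09), and inx-12 fell in both as well. inx-11 rose by 1.52 and 1.77, and inx-20 by 1.40 and 1.48.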

How the data were processed

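Subread alignment and featureCounts counting on WS220 preceded the values that the authors deposited, which are counts normalized by DESeq2 (a signal in units of size-factor-scaled reads; versions not given in the sources used here). Whether counting used strand was not given. The deposited log2 fold changes and p-values of the authors' own comparisons were not used. Dividing each library's values by its smallest step gave whole reads (tolerance 0.1), on which edgeR and DESeq2 were run as alternatives; 3 adult rows and 1 L1 row with shifted cells were left out. The main test was limma 3.58.1 with a mean-variance trend (R 4.3.3; edgeR 4.0.16, DESeq2 1.42.0) on log2(normalized count + 1), 1 fit per table with all its groups and no block, checked on simulated data. The members and lists were chosen with earlier results of these data known. Named genes were the 5 members, up to 4 called genes per list with the smallest p, and 3 nearest profiles per member. Chromosome, strand and summed exon length came from WBcel235, which is another build, so no coordinates are given. The paper describes adults of the 3 groups as collected together, with fertile and sterile adults picked from the same plated F4L1starved animals. It describes control and ancestrally starved eggs as harvested together. The sample titles give replicate numbers without saying that equal numbers share a collection. Replicate numbers were taken to pair 2 groups where every same-number correlation of deviations was over 0.1. Fertile and sterile adults met this (r = 0.175 to 0.384) and no other groups did; control and fertile adults were at -0.290 to -0.0488. Alternatives were the pseudocount, the minimum mean, scaling, tool, replicate block, each library left out, and fitting only the groups compared.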

Additional observations from a re-analysis of the deposited data

How the results depend on the processing

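Of the adult comparisons, sterile against control kept 5 of 5 calls under each alternative. Sterile against fertile kept 5 except for total scaling, where 3 were called. Fertile against control gave 2 calls when only the groups compared were fitted, where 41.3% of all genes tested were called, and 0 to 2 with each library left out. The 2 calls with a library left out came without sterile replicate 1, where 36.8% of all genes tested were called. Without food against with food, control larvae gave 1 call with no filter, 1 with a minimum mean of 50 (where 1 member was tested), and 0 to 2 with each library left out. F4+3 larvae gave 0 calls with a minimum mean of 50, and 1 to 3 with each library left out. The replicate block changed no call of a member: limma called the same number with and without it, and edgeR called inx-14 in F4+3 larvae both with it (adjusted p = 0.0675) and without it (0.0827). In control larvae each library with food correlated best with the no-food library of its own number (r = 0.0525 to 0.154), a hint from the data and not from the design.

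Directions that turned belonged to uncalled L1 values. For inx-22, the difference of the ancestral effect was -0.11 in edgeR, -0.10 in DESeq2 and -0.039 in edgeR with the replicate block, and no food against food in control larvae was 0.022 with total scaling. With each library left out, F4+3 against control with food ranged from -0.19 to 0.28 for inx-14 and from -0.057 to 0.29 for inx-21. Without food it ranged from -0.29 to 0.41 for inx-8, from -0.30 to 0.074 for inx-14, from -0.0033 to 0.50 for inx-21 and from -0.99 to 0.24 for inx-22. The difference of these effects ranged from -0.077 to 0.39 for inx-14, from -0.36 to 0.14 for inx-21 and from -0.47 to 0.76 for inx-22, and no food against food in F4+3 larvae from -1.04 to 0.19 for inx-22. The causes were not tested. inx-9 lay under the minimum mean in larvae and was not tested there.

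Counts over all genes moved too. Fertile against control called 2936 genes, 5069 with only the groups compared, 4880 without sterile replicate 1 and 975 without control replicate 1. F4+3 against control with food called 2 genes in limma, 216 in DESeq2, 128 without control food replicate 3, and 52 (limma) or 57 (edgeR) with the replicate block.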
